A study of Mus musculus with 12 samples.

Results

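Sarcomas grown from the mouse line BVMA01R were divided by the level of 1 transcript, Acta1, the actin of adult skeletal muscle fibres. Libraries with at least 200 CPM of Acta1 (reads scaled to an effective size of the library) were called muscle-rich, and the others muscle-poor. This put 6 of the 12 libraries on each side. The muscle-rich libraries were untreated replicates 1 and 3 (NT 1, NT 3), all chloroquine replicates (CQ 1, CQ 2, CQ 3) and ADI-PEG20 replicate 1. The muscle-poor libraries were untreated replicate 2 (NT 2), ADI-PEG20 replicates 2 and 3, and all replicates of the combination, ADI-PEG20+CQ 1, 2 and 3. Every tumor, in the untreated group too, came from the same line with the genotype Myf5-Cre;p53-/-;Ass1-/-, and the labels give the sex as female and the strain as C57BL/6J. The 4 groups of 3 libraries received no treatment, chloroquine, ADI-PEG20, or ADI-PEG20 with chloroquine. ADI-PEG20 is a pegylated enzyme that breaks down arginine, and chloroquine blocks the acidification of lysosomes. BVMA01R is a single line, Myf5 drives the Cre in cells of the muscle lineage, and the labels give no dose, time, age or site of the tumors.

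The division overlapped with treatment. All 3 chloroquine libraries were muscle-rich and all 3 combination libraries were muscle-poor, while 2 of 3 untreated and 1 of 3 ADI-PEG20 libraries were muscle-rich. Untreated tumors held 342, 34.3 and 351 CPM of Acta1 in replicates 1, 2 and 3. With chloroquine the values were 464, 498 and 248 CPM, and with ADI-PEG20 they were 669, 94.8 and 26.5 CPM. The combination gave 34.1, 57.5 and 29.1 CPM. The library nearest above the threshold was CQ 3 and the nearest below was ADI-PEG20 2, so the threshold fell in a gap. A threshold of 100 CPM gave the same 6 and 6 libraries, and at 400 CPM only CQ 1, CQ 2 and ADI-PEG20 1 stayed above. The 6 highest libraries by the creatine kinase gene Ckm, and by the mean of the fast-fibre genes, were also the same. There the number of 6 was set beforehand, and on both measures NT 1 and ADI-PEG20 1 stood furthest apart. The fast-fibre mean stepped from 4.24 to 5.91 log2 CPM below these 2 libraries, and from 2.35 to 2.89 at the division. Because Acta1 chose the sides, every difference between them is given below as a description with no test.

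Skeletal muscle forms when progenitors that express Myf5 turn on Myod1 and then Myog, leave the cell cycle and fuse through the membrane proteins encoded by Mymk and Mymx. New fibres first build sarcomeres from embryonic and neonatal proteins, such as the myosins of Myh3 and Myh8, the heart-type troponin T of Tnnt2 and the cardiac actin of Actc1. Mature fast fibres replace these with the myosins of Myh4 and Myh1, and add the calcium pump of Atp2a1, the calcium buffer parvalbumin (Pvalb) and muscle creatine kinase (Ckm). Sarcomas of the muscle lineage can switch on parts of the early program in their own cells, and muscle fibres next to a tumor can be sampled with it. The embryonic program also returns when adult muscle regenerates. The deposited values do not separate host RNA from tumor RNA, so the genes are grouped below by the stage of muscle they are known for, and the cell of origin was not tested.

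The promoters of 4 genes on which the description turns are printed to show what precedes an adult fibre gene and an early gene. They are the 250 bases before the start of Acta1, of the adult fast myosin Myh4, of the embryonic myosin Myh3 and of the early regulator Myog, from RefSeq on GRCm38.p6, each 5′ to 3′ on the strand of its gene. Capitals mark the E-box, CANNTG, the core bound by Myod1 and Myog, and the CArG box, the element of serum response factor. Both motifs read as motifs of the same kind on either strand, and no marked match overlaps another.
Acta1, chr8:123894776-123895025: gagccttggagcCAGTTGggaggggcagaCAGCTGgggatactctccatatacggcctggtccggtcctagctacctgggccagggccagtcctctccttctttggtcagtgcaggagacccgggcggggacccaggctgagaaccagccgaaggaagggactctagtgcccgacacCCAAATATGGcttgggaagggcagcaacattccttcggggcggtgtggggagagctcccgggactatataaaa
Myh4, chr11:67237562-67237811: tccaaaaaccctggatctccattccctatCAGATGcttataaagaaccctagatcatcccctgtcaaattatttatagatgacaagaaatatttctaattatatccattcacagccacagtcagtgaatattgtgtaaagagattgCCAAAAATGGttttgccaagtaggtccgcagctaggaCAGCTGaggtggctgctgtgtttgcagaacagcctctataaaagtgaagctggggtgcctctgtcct
Myh3, chr11:67078050-67078299: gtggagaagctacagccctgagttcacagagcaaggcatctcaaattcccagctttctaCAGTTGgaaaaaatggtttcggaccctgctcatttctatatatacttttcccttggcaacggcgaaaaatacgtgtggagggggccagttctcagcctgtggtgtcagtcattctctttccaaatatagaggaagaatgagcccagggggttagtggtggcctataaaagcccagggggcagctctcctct
Myog, chr1:134289754-134290003: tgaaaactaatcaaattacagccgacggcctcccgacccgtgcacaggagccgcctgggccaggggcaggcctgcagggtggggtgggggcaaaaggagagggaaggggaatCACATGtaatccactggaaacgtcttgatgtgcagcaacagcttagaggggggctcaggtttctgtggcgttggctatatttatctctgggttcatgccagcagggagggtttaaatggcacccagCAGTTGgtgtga
Acta1 lies on the minus strand and the other 3 genes on the plus strand. Acta1 and Myh4 each held 2 E-boxes and 1 CArG box, Myog held 2 E-boxes, and Myh3 held 1 E-box. Of all 32851 promoters of this length, 66.2% held an E-box, 31.8% held at least 2, and 1.47% held a CArG box. A match is a description of the letters only.

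Ass1, the arginine-making enzyme deleted in the line, was read at 6.85 to 18.9 CPM (median 11.5) in muscle-rich and 8.99 to 17.2 CPM (median 10.7) in muscle-poor libraries. Trp53, the gene of p53, was read at 13.0 to 26.8 and 20.1 to 26.8 CPM, and both ranges overlapped. Whether these reads come from host cells or lie outside the deleted exons was not tested. The libraries held 15501998 to 28410940 reads. Their CPM were scaled to an effective library size of 12590137 to 31280299, so 1 read was worth 0.0320 to 0.0794 CPM. A gene with no read is listed at the worth of 0.5 reads. The effective size was below the number of reads in ADI-PEG20 1 (12590137 against 16188928), NT 2 and CQ 1, and above it in the others. In those below, CPM are higher than the plain read total would give. ADI-PEG20 1 stood apart: 22.8% of its reads fell on the noncoding RNA Gm26917, and 120 of its genes had no read. NT 2 held 16.4%, and the other 10 libraries 5.09% to 9.86%. In bulk RNA, fewer muscle cells and less muscle RNA per cell cannot be told apart. The myosin genes on chromosome 11 are close copies, as are the actins, and how the authors' counting shared reads between copies is not given in the sources used here.

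The division separated few genes, and most of these were outside the muscle lists described below. Of 16335 genes, 143 (0.875%) had all 6 muscle-rich libraries above all 6 muscle-poor ones and 80 (0.49%) had them all below. The median difference of all genes, muscle-rich minus muscle-poor in mean log2 CPM, was -0.01. Against this background stand 9 muscle lists, from adult fast fibre to progenitors. They name 115 genes, of which 107 are in the deposited table. Of the 107, 34 (31.8%) were higher without overlap and 0 were lower. Differences of at least 1 log2 CPM without overlap numbered 70 upward (0.429%) and 20 downward (0.122%). Of the 45 genes that were at least 2 log2 CPM higher without overlap, 31 were in the muscle lists. Together the muscle lists and Acta1 took 0.237% to 1.06% of the CPM of each library.

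**Figure D1:**
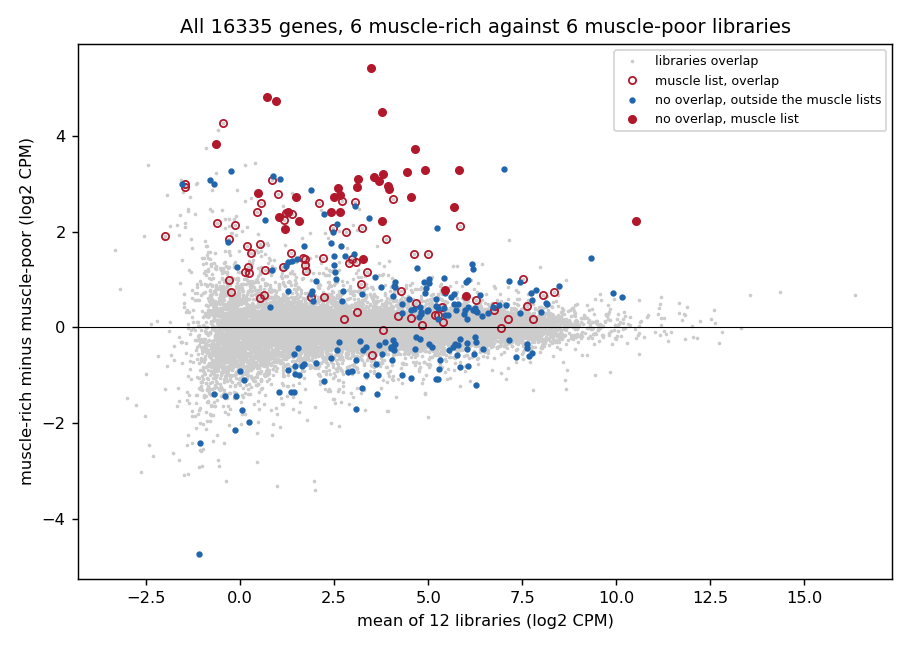
Each point is 1 gene, with its mean log2 CPM over 12 libraries on the x axis and the muscle-rich minus muscle-poor difference of mean log2 CPM on the y axis. Filled red points are the 34 muscle-list genes whose 6 and 6 libraries do not overlap, and they lie at the upper edge of the cloud, up to 5.41 for Myh4.

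Adult fast-fibre genes had the largest median difference of the 9 muscle lists. The mean of the 11 fast-fibre genes in the table ran from 2.89 to 6.53 (median 4.10) log2 CPM in muscle-rich and from 0.28 to 2.35 (median 1.35) in muscle-poor libraries. All 11 had higher means, 8 without overlap, with a median difference of 2.96 log2 CPM. Myh4 (ENSMUSG00000057003, GRCm38 chr11:67238029-67260446), the myosin of the fastest fibres, was read at 973 CPM in NT 1, 19.3 in NT 3, 22.0, 11.2 and 29.9 in CQ 1, 2 and 3, and 1036 in ADI-PEG20 1. In muscle-poor libraries it was read at 0.107 to 8.16 CPM (median 2.34), so the sides did not overlap, but NT 1 and ADI-PEG20 1 stood far above the other 4 muscle-rich libraries. Mybpc2, which encodes fast myosin binding protein C, had the same shape, with 121 CPM in NT 1, 2.07 in NT 3, 3.87, 2.73 and 3.40 in CQ 1, 2 and 3, and 108 in ADI-PEG20 1, against 0.0214 to 1.69 CPM (median 0.601). Its level in the 4 middle libraries lay close to that of NT 2 (1.69 CPM).

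The fast myosin Myh1 was spread more evenly, at 64.0 CPM in NT 1, 183 in NT 3, 119, 63.4 and 150.4 in CQ 1, 2 and 3, and 247 in ADI-PEG20 1, against 6.54 to 42.3 CPM (median 25.0) on the muscle-poor side. Here NT 3 exceeded NT 1, and CQ 2 and NT 1 were level. For both fast troponins NT 1 and ADI-PEG20 1 were the highest libraries. Tnnt3 was at 12.1 to 99.5 CPM (median 29.8) against 2.46 to 7.18 CPM (median 3.31), and Tnni2 at 25.1 to 89.0 CPM (median 35.9) against 3.10 to 8.71 CPM (median 4.29). Of the remaining members, Actn3, Myl1 and Mylpf also separated without overlap, with differences of 3.24, 2.88 and 2.96 log2 CPM. Myh2, Mylk2 and Myoz1 overlapped, and Tnnc2 is not analysed here.

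The scaffold of the sarcomere was higher throughout. All 20 scaffold genes had higher means in muscle-rich libraries, 14 without overlap, with a median difference of 2.72 log2 CPM. Their list mean ran from 3.43 to 5.47 (median 4.15) log2 CPM against 0.98 to 2.28 (median 1.64), a wider gap between the sides than for the fast-fibre mean. Ttn, whose protein spans from Z-disc to M-band, was at 3819 CPM in NT 1, 3029.6 in NT 3, 3217, 2264 and 2477 in CQ 1, 2 and 3, and 4973 in ADI-PEG20 1, against 318 to 1318 CPM (median 743). Neb, the ruler of the thin filament, was at 64.2 to 486 CPM (median 179) against 6.14 to 39.5 CPM (median 19.1), a difference of 3.29 log2 CPM. Des, the muscle intermediate filament, overlapped: muscle-poor NT 2 held 403 CPM, the highest of all 12 libraries, against 181 to 387 CPM (median 257) in the muscle-rich ones.

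Genes that couple excitation to contraction came next, with all 16 means higher, 7 without overlap and a median difference of 2.40 log2 CPM. Atp2a1, the calcium pump of fast fibres, was at 301 CPM in NT 1, 33.1 in NT 3, 29.8, 20.9 and 34.6 in CQ 1, 2 and 3, and 373 in ADI-PEG20 1, against 0.749 to 5.61 CPM (median 3.53). Ryr1, the calcium release channel, was at 51.3 to 266 CPM (median 74.3) against 4.47 to 18.3 CPM (median 8.92). Both separated the sides, and NT 1 and ADI-PEG20 1 were again highest. Pvalb did not separate them: it was at 35.5 CPM in NT 1, 1.56 in NT 3, 3.07, 1.14 and 2.28 in CQ 1, 2 and 3, and 47.3 in ADI-PEG20 1, and NT 2 on the muscle-poor side held 1.93 CPM, more than NT 3 and CQ 2. Cacna1s, the voltage sensor, differed by 2.77 and Casq1, the fast calsequestrin, by 2.71 log2 CPM, both without overlap.

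In muscle energy supply, all 12 genes in the table had higher means but only Ckm, Pygm and Pfkm separated the sides, with a list median of 1.22 log2 CPM. Ckm was at 85.3 CPM in NT 1, 3.09 in NT 3, 4.14, 1.51 and 3.45 in CQ 1, 2 and 3, and 80.3 in ADI-PEG20 1, against 0.193 to 0.659 CPM (median 0.277). NT 1 and ADI-PEG20 1 stood far above every other library, and the remaining muscle-rich libraries were nearer to the muscle-poor ones. Pygm, the glycogen phosphorylase of muscle, was at 9.09 to 113 CPM (median 13.2) against 1.504 to 6.70 CPM (median 3.22). Ampd1, the muscle AMP deaminase, reached 16.0 and 15.4 CPM in that pair but 0.210 to 2.81 CPM in the other 4, within the muscle-poor range except for CQ 3. The dystrophin complex moved least among fibre genes, with a median difference of 0.63 log2 CPM and 2 of 11 genes without overlap, Sgca (2.30) and Sntb1 (0.78).

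**Figure D2:**
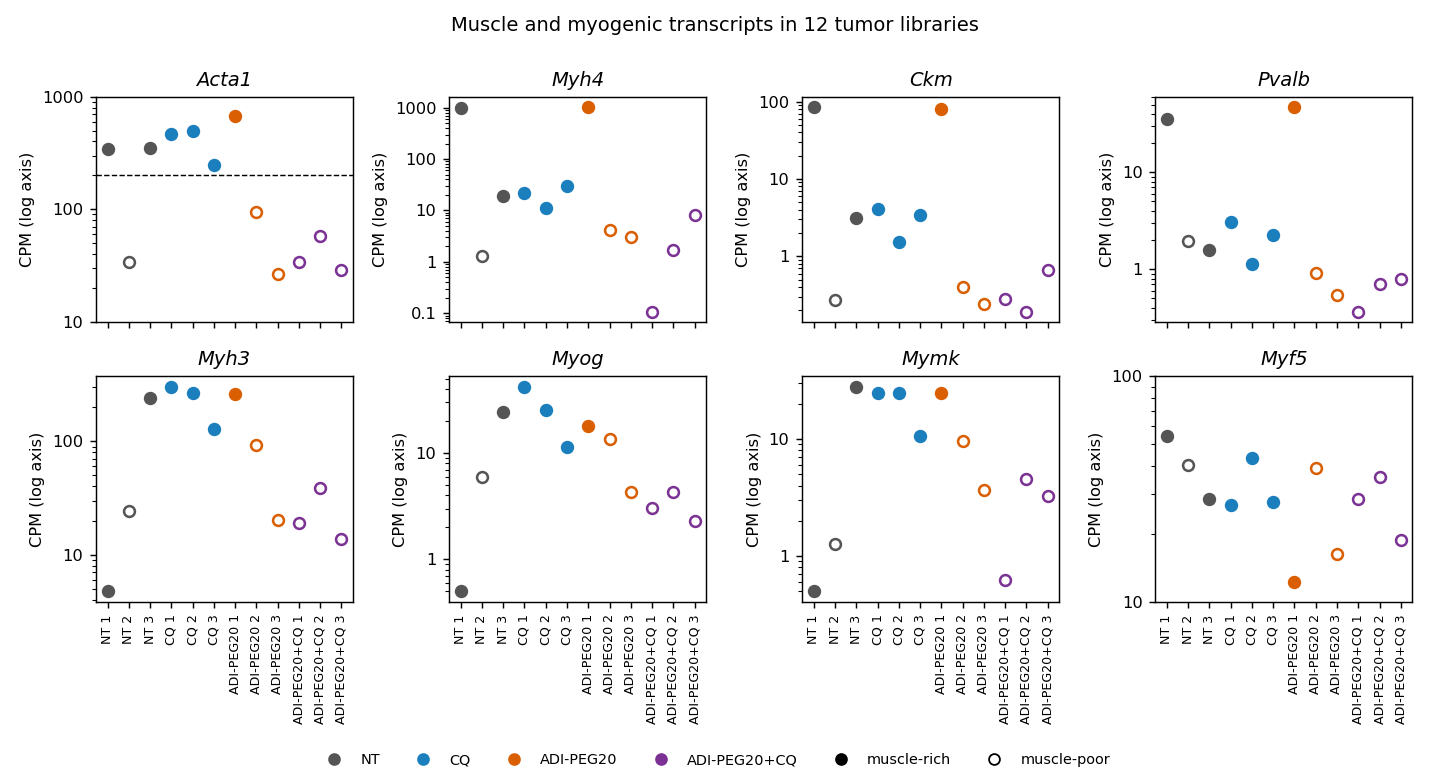
CPM on log axes for 8 genes in the 12 libraries, 1 point per library, colored by treatment, filled for muscle-rich and open for muscle-poor. The dashed line marks 200 CPM of Acta1. NT 1 and ADI-PEG20 1 lead Myh4, Ckm and Pvalb, while NT 1 is the lowest library for Myh3, Myog and Mymk.

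Slow-fibre genes had higher means in all 9 cases, with a median difference of 2.0 log2 CPM, yet 0 of 9 separated the sides. NT 1 was the lowest muscle-rich library for 6 of them, and without NT 1 there were 4 of 9 that separated the sides (1.48% of all genes). NT 1 was singled out after its low values were seen, so that share is no reference for this count. Tnnc1, the troponin C of slow and cardiac muscle, was at 1.74 CPM in NT 1, 33.0 in NT 3, 34.5, 53.7 and 17.4 in CQ 1, 2 and 3, and 29.7 in ADI-PEG20 1, against 3.02 to 11.8 CPM (median 3.99). Casq2, the slow and cardiac calsequestrin, was at 0.899 CPM in NT 1, 30.4 in NT 3, 30.7, 27.4 and 14.7 in CQ 1, 2 and 3, and 23.5 in ADI-PEG20 1, against 1.44 to 9.38 CPM (median 3.50). For both, NT 1 lay below every muscle-poor library and the other 5 muscle-rich libraries lay above them all. Tnnt1, the slow troponin T, was at 12.2 to 57.7 CPM (median 31.6) against 4.82 to 16.7 CPM (median 7.44), with NT 1 lowest among the muscle-rich at 12.2 CPM and ADI-PEG20 1 next at 16.0. Myh7, the slow myosin, took another course, with 17.0 CPM in ADI-PEG20 1 and 2.92 in NT 2, the next highest.

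Embryonic contractile genes were low in NT 1 more often still, with NT 1 below the other muscle-rich libraries for 7 of 9. All 9 had higher means, with a median difference of 1.54 log2 CPM, and 0 of 9 separated the sides with NT 1 included. Without NT 1, 5 of 9 did, and 242 of all genes (1.48%). Because NT 1 was set aside for its low values in these same genes, the share of all genes is no reference here. Myh3 (ENSMUSG00000020908, GRCm38 chr11:67078300-67102291), the embryonic myosin, was at 4.73 CPM in NT 1, 240.0 in NT 3, 305, 267 and 128 in CQ 1, 2 and 3, and 261 in ADI-PEG20 1. On the muscle-poor side it was at 13.8 to 92.2 CPM (median 22.3), with ADI-PEG20 2 highest. NT 1 was therefore the lowest of all 12 libraries for Myh3 and the second highest for Myh4. Chrng, the fetal subunit of the acetylcholine receptor, was at 0.0999 CPM in NT 1, 11.5 in NT 3, 5.58, 7.06 and 4.28 in CQ 1, 2 and 3, and 4.81 in ADI-PEG20 1, against 0.0214 to 3.87 CPM (median 1.17); the NT 1 value rests on 2 reads, and ADI-PEG20+CQ 1 had no read. Actc1, the cardiac actin of early fibres, was at 10.05 CPM in NT 1, 46.2 in NT 3, 88.0, 60.8 and 39.6 in CQ 1, 2 and 3, and 60.6 in ADI-PEG20 1, against 2.94 to 20.3 CPM (median 5.20). Tnnt2 was at 2.14 CPM in NT 1 and 14.6 to 23.2 in the other 5, and NT 2 held 22.2 CPM, as much as they did.

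The myogenic regulators followed the embryonic genes. Of 11 means, 10 were higher, with a median difference of 0.90 log2 CPM and 0 without overlap. Myog, the factor of terminal differentiation, was at 0.499 CPM in NT 1, 24.4 in NT 3, 42.3, 25.4 and 11.3 in CQ 1, 2 and 3, and 18.1 in ADI-PEG20 1, against 2.30 to 13.5 CPM (median 4.30). ADI-PEG20 2, muscle-poor by Acta1, held more Myog than CQ 3. Myod1 was at 0.779 CPM in NT 1, 17.8 in NT 3, 38.8, 23.8 and 12.7 in CQ 1, 2 and 3, and 24.6 in ADI-PEG20 1, against 2.80 to 21.9 CPM (median 5.15), with NT 2 highest on the muscle-poor side. Mymk, the fusion protein myomaker, was at 0.499 CPM in NT 1, 28.1 in NT 3, 24.6, 24.6 and 10.7 in CQ 1, 2 and 3, and 24.5 in ADI-PEG20 1, against 0.620 to 9.64 CPM (median 3.47). The 5 muscle-rich libraries other than NT 1 lay above every muscle-poor library for Mymk and its partner Mymx, and not for Myog or Myod1. Cdh15, the muscle cadherin, and Itga7, the laminin receptor of muscle cells, were present on both sides. Cdh15 was at 263 to 674 CPM (median 437) against 145 to 373 CPM (median 293), and NT 1 was among the highest for both (528 and 586 CPM). The partner factors Mef2a, Mef2c and Mef2d differed by -0.02, 0.26 and 0.18 log2 CPM.

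The progenitor genes went in both directions. Their differences ran from -0.57 log2 CPM for Megf10, a receptor of satellite cells, to 1.43 for Msc, the factor musculin, with a median of 0.18 and 0 of 8 without overlap. The list mean was 3.95 to 4.27 log2 CPM in NT 3 and CQ 1 to 3, above the muscle-poor range of 3.47 to 3.81 (median 3.61), and 3.60 and 3.53 in NT 1 and ADI-PEG20 1, within it. Myf5 was at 12.3 to 54.4 CPM (median 28.2) in muscle-rich and 16.3 to 40.5 CPM (median 32.2) in muscle-poor libraries. The highest value was in NT 1 (54.4 CPM) and the lowest in ADI-PEG20 1 (12.3 CPM), both of them muscle-rich. Notch3 was at 201 to 284 CPM (median 226) against 161 to 281 CPM (median 209.8). Pax3 and Pax7 are not analysed here.

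The 6 muscle-rich libraries thus held more than 1 combination of these lists, a pattern noticed after the values were seen and described without a test. Relative to the median muscle-poor library, the fast-fibre list was higher by 4.55 log2 in NT 1 and by 5.18 in ADI-PEG20 1. The excess was 2.56 in NT 3 and 2.62, 1.54 and 2.88 in CQ 1, 2 and 3. The energy list divided the same libraries, at 3.22 and 3.53 against 0.29 to 1.63. For the embryonic list the odd library was NT 1 alone, at -0.51, while ADI-PEG20 1 stood at 1.99 and the other 4 at 1.71 to 2.28. The regulator list gave -0.39 in NT 1 and 0.83 to 1.53 in the other 5. NT 1 therefore combined adult fast-fibre transcripts with embryonic and regulator levels below the muscle-poor median. NT 3 and CQ 1 to 3 held the early genes, with an excess of adult genes smaller than in NT 1 and ADI-PEG20 1. In NT 3, CQ 1 and CQ 3 the fast-fibre excess was still larger than the embryonic one, and in CQ 2 it was smaller. ADI-PEG20 1 held both the early genes and the large adult excess.

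**Figure D3:**
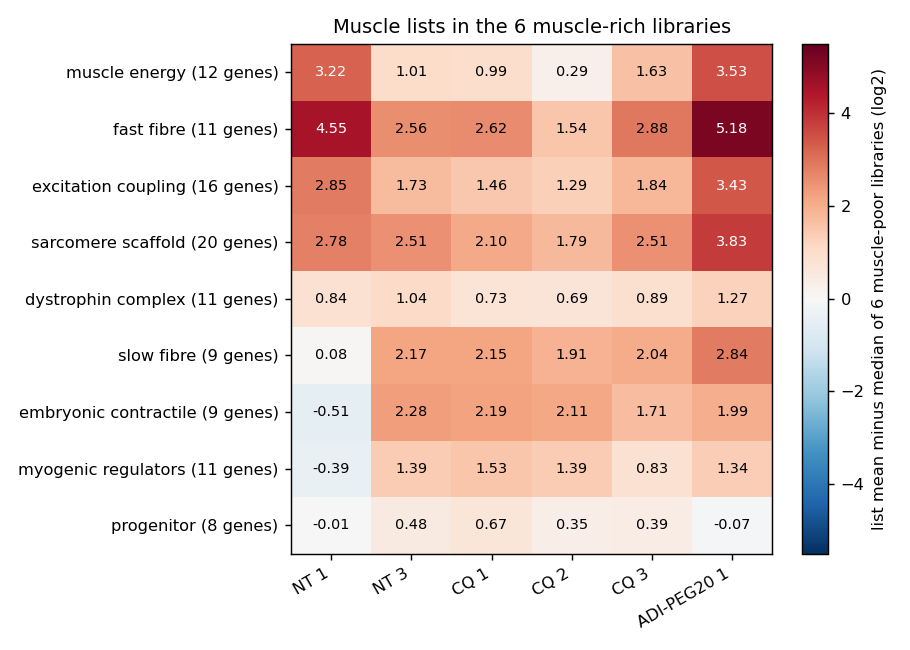
Mean log2 CPM of each muscle list in each muscle-rich library, minus the median of the 6 muscle-poor libraries for that list (color and number, log2). The energy, fast-fibre, coupling and scaffold rows are strongest in NT 1 and ADI-PEG20 1, and the slow, embryonic and regulator rows are near 0 or below in NT 1 only.

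**Figure D4:**
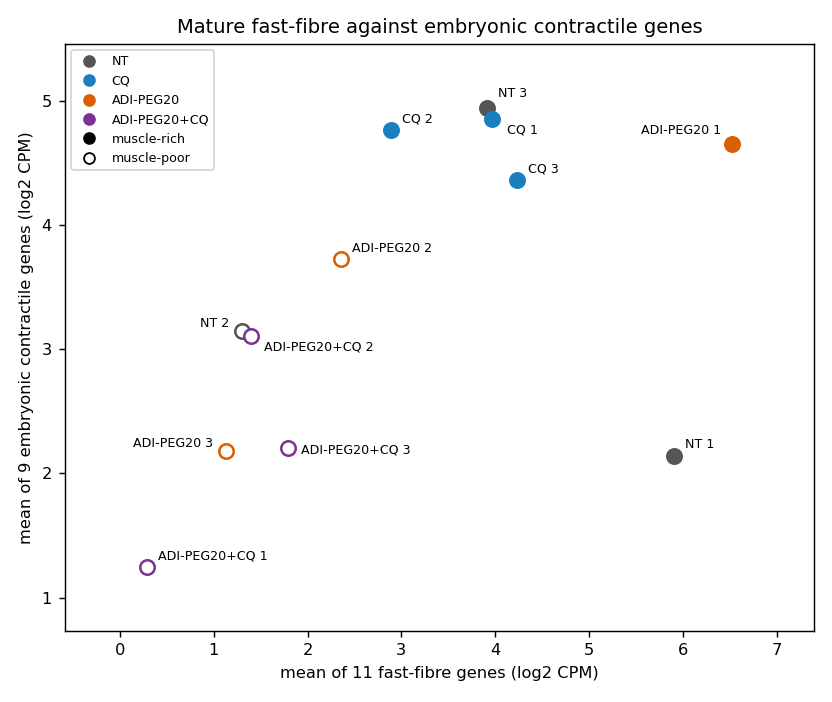
Each point is 1 library, with the mean of 11 fast-fibre genes on the x axis and of 9 embryonic contractile genes on the y axis, both in log2 CPM, filled for muscle-rich and open for muscle-poor. NT 1 is far to the right at the embryonic level of the muscle-poor libraries, ADI-PEG20 1 is high on both axes, and NT 3 and CQ 1 to 3 form the upper middle.

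The pair NT 1 and ADI-PEG20 1, and the low values of NT 1, were picked out after these lists were seen. The shares of all genes given here are therefore no reference for the counts by list. Counted gene by gene, NT 1 and ADI-PEG20 1 both lay above the other 4 muscle-rich libraries for 886 of all genes (5.42%). By list this was the case for 7 of 11 fast-fibre, 12 of 16 coupling, 10 of 12 energy and 11 of 20 scaffold genes. It held for 1 of 11 dystrophin complex genes, 1 of 9 slow-fibre genes, 1 of 11 regulators, 0 of 9 embryonic and 0 of 8 progenitor genes, and outside muscle for 3 of 13 adipocyte and 2 of 6 tendon genes. NT 1 lay below the other 5 muscle-rich libraries for 3862 genes (23.6%). That was so for 7 of 9 embryonic, 6 of 9 slow-fibre, 6 of 11 regulator, 5 of 20 scaffold, 3 of 16 coupling, 3 of 11 dystrophin complex and 2 of 8 progenitor genes, and for 0 of 11 fast-fibre and 0 of 12 energy genes. Low values in NT 1 were not particular to muscle: the same held for 6 of 7 T cell, 6 of 10 macrophage, 6 of 11 keratinocyte and 5 of 10 endothelial genes. The 2 libraries with the most adult fibre RNA differed in treatment, NT 1 being untreated, and the 4 libraries with the early genes and fewer adult transcripts were NT 3 and all 3 chloroquine libraries.

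NT 2 and ADI-PEG20 2, muscle-poor by Acta1, were not without early muscle genes. In NT 2, Myod1 was at 21.9 CPM and Tnnt2 at 22.2, both within the range of the muscle-rich libraries other than NT 1. The scaffold gene Des was at 403 CPM in NT 2, above every muscle-rich library. The fast-fibre mean of NT 2 was 1.30 log2 CPM, near the muscle-poor median. ADI-PEG20 2 had the highest embryonic mean of the muscle-poor libraries (3.72 log2 CPM), with Myh3 at 92.2 and Mymk at 9.64 CPM. The lowest embryonic mean was 1.25, in ADI-PEG20+CQ 1.

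Outside the lists, the 12 genes with the largest differences in each direction were taken under 3 conditions: no overlap of the sides, a mean of at least 1 log2 CPM, and the same direction within untreated and within ADI-PEG20 libraries. Ano5, a membrane repair protein of muscle, led with 16.2 CPM in NT 1, 5.20 in NT 3, 2.70, 7.53 and 3.55 in CQ 1, 2 and 3, and 8.94 in ADI-PEG20 1, against 0.109 to 2.24 CPM (median 0.963), a difference of 3.09 log2 CPM. Alpk3 (2.88), a kinase-like protein of the sarcomere, Pdlim3 (2.54), a Z-disc protein, and Trim72 (2.36), which seals membrane wounds, came next. Ankrd23 (2.29) and Hspb7 (2.15) followed, genes known from heart and skeletal muscle. H19, the imprinted noncoding RNA of embryonic tissue and immature muscle, was at 50.1 CPM in NT 1, 63.7 in NT 3, 121, 96.7 and 56.4 in CQ 1, 2 and 3, and 99.0 in ADI-PEG20 1, against 8.03 to 48.6 CPM (median 17.7). Its margin was narrow, since NT 1 held 50.1 and ADI-PEG20+CQ 3 held 48.6 CPM.

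In the other direction the differences under these conditions were smaller. Of all genes, 3 were at least 2 log2 CPM lower without overlap, but they did not meet the conditions. Il1rn, which blocks the interleukin-1 receptor, had the largest difference under the same rule, -1.71 log2 CPM, at 2.22 to 7.68 CPM (median 5.13) against 11.9 to 19.4 CPM (median 15.9). Ccr1, a chemokine receptor of myeloid cells, was at 8.59 to 19.2 CPM (median 15.2) against 20.8 to 35.8 CPM (median 28.3), and Ackr3, an atypical chemokine receptor, differed by -1.06. Stmn2, a tubulin-binding protein best known from neurons, was at 28.7 to 79.0 CPM (median 52.0) against 97.0 to 145 CPM (median 117). Ezr, which links actin to the membrane, was at 19.7 to 34.6 CPM (median 26.1) against 47.9 to 67.7 CPM (median 55.3), and the adhesion gene Pcdh9 at 4.81 to 9.57 CPM (median 8.21) against 15.1 to 32.1 CPM (median 18.3).

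Few markers of other tissues separated the sides, although the tendon, neutrophil and keratinocyte lists had median differences of 1.15, -1.04 and -0.82 log2 CPM, larger in size than that of the dystrophin complex. All 10 macrophage genes had lower means on the muscle-rich side, with a median difference of -0.31 log2 CPM and 0 of 10 without overlap. Mrc1, the mannose receptor, was at 61.2 to 139 CPM (median 62.4) against 95.2 to 197 CPM (median 138). Within untreated libraries the list mean differed by -0.04 and within ADI-PEG20 libraries by 0.17 log2 CPM, muscle-rich minus muscle-poor, so the direction was not shared. Tendon genes were higher in 6 of 6 means, with 0 without overlap. Thbs4, a matrix protein of tendon and muscle, was at 101 to 801 CPM (median 221) against 6.29 to 366 CPM (median 108), and its summed list ran from 298 to 1404 CPM against 72.4 to 889. Smooth muscle and pericyte genes had a median of 0.42, with 2 of 11 without overlap, Cnn1 (69.6 to 170.4 CPM (median 111) against 34.7 to 59.2 CPM (median 52.1)) and Myh11 (10.4 to 34.6 CPM (median 17.6) against 6.74 to 9.73 CPM (median 8.52)). The actins of other cells shifted little: Acta2, Actb and Actg1 differed by 0.56, 0.09 and 0.12 log2 CPM.

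Fat markers went with 1 muscle-rich library. The 13 adipocyte genes averaged 5.49 log2 CPM in ADI-PEG20 1, against 1.97 to 3.27 in the other 5 muscle-rich and 1.93 to 4.05 (median 2.62) in the muscle-poor libraries. Cfd, the adipokine adipsin, was at 138 CPM there and at 1.65 to 8.46 in the other 5, while ADI-PEG20+CQ 1 on the muscle-poor side held 48.6. NT 1, the other library rich in adult fibre genes, held 4.46 CPM of Cfd. Car3, a carbonic anhydrase of fat and slow muscle, was at 183 CPM in ADI-PEG20 1 and 47.6 in NT 1. The part of the fat and of the Gm26917 reads in the muscle values of ADI-PEG20 1 was not tested. Median differences of the remaining lists were -0.23 log2 CPM for 10 endothelial, -0.04 for 8 Schwann cell, 0.15 for 7 T cell and -0.14 for 6 erythroid genes, with 0 genes without overlap in each, nor among 11 keratinocyte and 4 neutrophil genes. Those of 15 proliferation, 13 mitochondrially encoded, 6 RNA quality and 3 cardiac genes were 0.01, -0.16, -0.06 and 0.12. Of 7 muscle atrophy and stress genes, with a median of 0.32, only Trim63, a ubiquitin ligase of muscle, separated the sides (3.27).

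Within 1 treatment the division rests on few libraries. Among untreated tumors, NT 1 and NT 3 minus NT 2 gave 3.61 log2 CPM for the fast-fibre list and 0.39 for the embryonic list. Among ADI-PEG20 tumors, replicate 1 minus replicates 2 and 3 gave 4.79 and 1.70. So the adult genes were higher on the muscle-rich side in both treatments. The embryonic list was higher in ADI-PEG20 1, but the untreated muscle-rich libraries went opposite ways. Its mean was 2.14 log2 CPM in NT 1 and 4.94 in NT 3, against 3.15 in NT 2. With 1 library on a side in each treatment, no spread can be given there. Those single libraries, NT 2 and ADI-PEG20 1, were also the ones highest in Gm26917, whose part in these differences was not tested. Chloroquine and the combination have libraries on 1 side only, so in these groups the division and the treatment cannot be told apart.

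The treatment comparisons were fitted across all genes with limma, and 0 genes passed an adjusted p of 0.05 in any of the 5 (0.0% called in each) and with voom weights on the recovered reads. Of the alternatives tried, 3 called any gene, with 1, 1 and 8 genes. The labels do not say that libraries are separate animals, so p-values measure the spread between these samples. Between the combination and chloroquine alone, all 3 libraries against all 3 fall on opposite sides of the division. In this comparison 70 of the 107 muscle-list genes had all combination libraries below all chloroquine ones, where 9.57% of all genes did, and 0 had them above (8.78% of all genes). The muscle-list median was -1.92 log2 CPM against 0.01 for all genes. By list, an unadjusted p under 0.05 was reached by 7 of 9 embryonic, 7 of 9 slow-fibre, 12 of 20 scaffold, 8 of 16 coupling, 6 of 11 regulator and 5 of 11 fast-fibre genes. The counts were 3 of 11 for the dystrophin complex, 1 of 8 for progenitor and 0 of 12 for energy genes. Myh3 was at 233 ± 93.2 CPM (SD, n = 3) with chloroquine and 23.7 ± 13.0 CPM (SD, n = 3) with the combination, a difference of -3.34 (SE 1.13, limma adjusted p = 0.60). Actc1 was at 62.8 ± 24.2 CPM (SD, n = 3) and 4.58 ± 1.09 CPM (SD, n = 3), a difference of -3.73 (SE 0.83, limma adjusted p = 0.49). For Ckm the groups were at 3.03 ± 1.36 CPM (SD, n = 3) and 0.377 ± 0.249 CPM (SD, n = 3), a difference of -3.09 (SE 2.04, limma adjusted p = 0.82). None of these passed the threshold, and 49 of the 107 genes (45.8%) had an unadjusted p under 0.05, as did 1107 genes (6.78%) of all. Macrophage markers moved with this comparison: all 10 had higher means with the combination, 4 without overlap, with a median of 0.52 log2 CPM and 6 at an unadjusted p under 0.05 (lowest limma adjusted p = 0.49). Their summed level was 929 to 1282 CPM with chloroquine and 1394 to 1825 CPM with the combination, and none was near 0 in any library.

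Against untreated tumors, which lie on both sides of the division, the muscle lists separated less often. With the combination, 29 of 107 genes had all libraries below the untreated ones (7.92% of all genes) and 0 above (7.46%), and 30 had an unadjusted p under 0.05, as did 1413 genes (8.65%) of all. In the same comparison all 10 macrophage genes were higher without overlap, with a median of 0.73 log2 CPM and 10 at an unadjusted p under 0.05 (lowest limma adjusted p = 0.26), and their summed level was 863 to 1062 CPM in untreated tumors. The part of the macrophage markers in the muscle differences was not tested. With chloroquine, 2 of 107 had all libraries above (3.69% of all genes) and 0 below (3.72%), and 9 had an unadjusted p under 0.05 among 555 (3.4%) of all. With ADI-PEG20, 0 of 107 separated in either direction (5.57% above and 4.54% below for all genes), and 5 of the 1357 genes (8.31%) with an unadjusted p under 0.05 were in the lists, while 7 of 10 macrophage genes were higher without overlap (summed level 1233 to 1694 CPM). Between the combination and ADI-PEG20, 13 of 107 were lower without overlap (4.47% of all genes) and 0 higher (4.7%), and 17 had an unadjusted p under 0.05, as did 559 genes (3.42%) of all. These comparisons share groups, so their counts are not independent of each other. Within untreated tumors the SD was wide: Myh3 was at 89.7 ± 131 CPM (SD, n = 3) and Ckm at 29.6 ± 48.3 CPM (SD, n = 3), and with ADI-PEG20 Ckm was at 27.0 ± 46.2 CPM (SD, n = 3).

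With the log2 CPM of Acta1 as a covariate in the same fit, the number of genes with an unadjusted p under 0.05 moved from 1107 to 390 for the combination against chloroquine and from 1413 to 1080 for the combination against no treatment. It moved from 1357 to 1553 for ADI-PEG20, from 555 to 402 for chloroquine and from 559 to 246 for the combination against ADI-PEG20. The number called stayed at 0 in all 5. Myh3 then differed by -1.45 log2 CPM between the combination and chloroquine, and Ckm by 2.43, the opposite direction. Acta1 differs between these groups in every library, so what the covariate removes and what treatment did to muscle genes cannot be told apart.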

How the data were processed

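RNA was measured in 12 tumors by ribosomal RNA depletion sequencing, per the labels' protocols. The authors deposited log2 CPM per library, which is log2 of the reads plus 0.5 over an effective library size. Whole reads were recovered from these columns: 100% of values under 2000 reads came within 0.02 of a whole number. The authors' log2 fold changes, p-values and a signed score of fold change, deposited beside them per the file headers, were not used. Of the tools behind them, the submitters' processing notes list featureCounts 1.4.6-p5 from Subread, STAR 2.5.1a, bcl2fastq, limma, edgeR and Salmon 0.8.2, and the build mm10, without saying what each did. Of 16386 lines, 51 repeats of a gene were dropped, and the lowest gene total was 85 reads.

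The division, the gene lists and the alternatives were chosen with earlier results of these data known. Differences between the sides are differences of mean log2 CPM, which understate the change of low genes, and a gene was called when the 6 and 6 libraries did not overlap. A named gene is a member of the 24 lists (237 of 261 genes in the table), an actin, or 1 of the 12 outside the lists with the largest difference each way, as the text describes. Ass1 and Trp53 were added because of the genotype. Further genes under the other observations were picked after the values were seen. Some list members are counted but not reported here by name. Treatments were compared with limma 3.58.1 in R 4.3.3 on log2 CPM, all 12 libraries in 1 fit of 4 groups with a trend, two-sided, with Benjamini-Hochberg adjustment over 16335 genes at 0.05, and the script was tested on simulated data. Coordinates come from GENCODE on GRCm38, matched for 283 of 283 genes. Alternatives were other thresholds and dividing genes, quantile and list-free scaling, a filter at a mean of 1 log2 CPM, comparison within treatments, leaving out each library, an Acta1 covariate, a replicate block, no trend and voom weights. The labels do not say that equal replicate numbers belong together, and the numbers were not used as pairs, although same-numbered chloroquine and combination libraries deviated together (r over 0.1 in 3 of 3 pairs).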

Additional observations from a re-analysis of the deposited data

Results flagged for a closer look

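List means and named genes were examined on each side of the division, 148 groups of 6 libraries. In 18 the lowest or highest library was set apart from the rest by more than 0.625 of the group's range. Chance gives about 1 in 20 for groups not chosen by their values. Some of the named genes were chosen after these values were seen, so that rate is no reference for the 18. Of the 18, 17 were on the muscle-rich side and 14 were NT 1. For 23.6% of all genes NT 1 was below the other 5 muscle-rich libraries. Genes of a list are not independent of each other, so they are not separate findings.

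NT 1 was the lowest muscle-rich library for 3 list means, all in log2 CPM: 1.08 for slow fibre, 3.34 for the myogenic regulators and 2.14 for the embryonic contractile genes. Among regulators and fusion genes, NT 1 was lowest for Myog at -1.002, Myod1 at -0.36, Mymk at -1.002 and Mymx at -2.84 log2 CPM. Among contractile genes of early fibres, it was lowest for Myh3 at 2.24, Myl4 at 2.67, Tnnt2 at 1.10 and Actc1 at 3.33, and for the receptor subunit Chrng at -3.32. Of the slow and cardiac genes, it was lowest for Tnnc1 at 0.80 and Casq2 at -0.15 log2 CPM.

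ADI-PEG20 1 was the highest muscle-rich library for the adipocyte mean at 5.49, for Cfd at 7.11 and for the RNA quality mean, abundant noncoding RNAs such as Malat1 and Gm26917, at 12.65 log2 CPM. On the muscle-poor side, Trim72 was lowest in ADI-PEG20+CQ 1 at -1.15 log2 CPM.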

How the results depend on the processing

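Which genes separate the sides depends on single libraries. Leaving out 1 library at a time gave 151 to 317 genes higher and 94 to 220 lower, against 143 and 80: without NT 1 the counts were 242 and 168, without NT 2 they were 317 and 220, and the lower count was 143 without CQ 3 and 124 without ADI-PEG20 1. Fewer libraries leave fewer chances of overlap, so such counts rise by construction. Without NT 1 and ADI-PEG20 1 together, an alternative added after seeing the data, they were 302 and 236. Within untreated and ADI-PEG20 libraries, 3 against 3, they were 699 and 691. At 400 CPM of Acta1, which makes NT 1, NT 3 and CQ 3 muscle-poor, 126 genes were lower and the fast-fibre mean difference was 1.98 log2 CPM against 3.20. It was 2.81 to 3.53 when 1 library was left out, and the embryonic one 1.41 to 2.11. The difference of the muscle atrophy and stress list turned to -0.076 from 1.18 when genes with a mean under 1 log2 CPM were removed, which leaves fewer genes in the list. Of the other values of single genes and lists, 27 moved by more than the spread of their side and 1478 did not. Many of the 1478 could not move. A threshold of 100 CPM, Ckm and the fast-fibre list gave the same libraries as the main division. The filter on the mean leaves the difference of a single gene unchanged. The 1478 are therefore no measure of stability.

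For treatments, limma called 0 genes in all 5 comparisons except in 3 alternatives: 1 gene for ADI-PEG20 against no treatment without NT replicate 3, 1 for the combination against chloroquine without ADI-PEG20 replicate 3, and 8 for the combination against no treatment with a replicate block. The causes were not tested. Leaving out 1 library gave 0 to 1 called genes in these 2 comparisons and 0 in the other 3. Samples with the same replicate number deviated from their group means with r of -0.05 to 0.20 over 18 pairs, and 9 were over 0.1. Samples with unlike numbers were not compared, so whether equal numbers share more than a label was not tested. Only chloroquine and the combination had all 3 pairs over 0.1 (0.11 to 0.15), while the highest r was that of CQ 2 and ADI-PEG20 2. The fit with the replicate block called 0 genes between chloroquine and the combination (lowest limma adjusted p = 0.074). With the block, genes with an unadjusted p under 0.05 rose in all 5 comparisons, from 1107 to 1287 between chloroquine and the combination. Genes at a few reads, such as Chrng in NT 1, are limited by depth.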

Other observations

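Further genes outside the lists went with one or the other combination in the muscle-rich libraries. They were picked after the values were seen, by the order of NT 1 and ADI-PEG20 1 among the muscle-rich libraries, and are given as values only. Mybph, a myosin binding protein of immature and stressed muscle, was at 4.34 CPM in NT 1, 23.7 in NT 3, 22.7, 28.2 and 12.8 in CQ 1, 2 and 3, 25.7 in ADI-PEG20 1, and 1.99 to 8.46 CPM (median 3.79) in the muscle-poor libraries. Smyd1, a chaperone-linked methyltransferase of myosin assembly, was at 4.22 CPM in NT 1, 13.0 in NT 3, 16.5, 13.4 and 8.74 in CQ 1, 2 and 3, 12.3 in ADI-PEG20 1, and 0.614 to 4.24 CPM (median 2.72). Rbm24, a splicing factor of heart and muscle, was at 3.86 CPM in NT 1, 18.3 in NT 3, 17.8, 8.93 and 8.44 in CQ 1, 2 and 3, 8.38 in ADI-PEG20 1, and 1.80 to 6.28 CPM (median 2.46). For each of these NT 1 was the lowest muscle-rich library and the other 5 lay above all muscle-poor ones, as for Myh3 and Mymk.

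Igf2, the imprinted growth factor next to H19 on chromosome 7, was at 1547 CPM in NT 1, 4505 in NT 3, 8175, 3969 and 4114 in CQ 1, 2 and 3, 3647 in ADI-PEG20 1, and 2059.8 to 3118 CPM (median 2812) in the muscle-poor libraries. NT 1 was the lowest of all 12 libraries for Igf2, while H19 in NT 1 (50.1 CPM) was above every muscle-poor library. In the other group, Ankrd23 was at 62.6 CPM in NT 1, 18.6 in NT 3, 9.26, 10.5 and 27.7 in CQ 1, 2 and 3, 58.5 in ADI-PEG20 1, and 2.18 to 9.03 CPM (median 5.31). Myo18b, an unconventional myosin of the sarcomere, was at 20.8 CPM in NT 1, 7.68 in NT 3, 5.53, 2.03 and 11.8 in CQ 1, 2 and 3, 35.7 in ADI-PEG20 1, and 1.31 to 3.79 CPM (median 2.54), and Ndrg2, abundant in muscle and brain, at 28.1 CPM in NT 1, 6.85 in NT 3, 4.35, 4.59 and 9.67 in CQ 1, 2 and 3, 26.1 in ADI-PEG20 1, and 2.49 to 5.89 CPM (median 3.75). For these 3, NT 1 and ADI-PEG20 1 were the highest libraries, as for Myh4 and Ckm.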
